A study of Mus musculus with 20 samples.

Results

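The TNF receptor superfamily genes described here are the cell surface receptors that take part in TNF-type signaling and death receptor signaling. The family was chosen because *Eda2r*, *Tnfrsf1a* and *Ngfr* were higher in the livers of mice given the highest dose of benzo(a)pyrene (BaP), so the comparison of that dose with the control selected on its own values and is given as a description. Of 10 genes listed, 9 had a probe whose accession named them, and all 9 had a probe that was detected (present), out of 12987 genes with a present, named probe. *Cd40* was not analysed here, because no probe was named through its accession. The 9 genes were read by 15 probes, of which 13 were present. Only 5 of the 10 listed receptors carry a death domain (*Fas*, *Tnfrsf1a*, *Tnfrsf10b*, *Ngfr* and *Tnfrsf21*), while *Eda2r*, *Tnfrsf1b*, *Tnfrsf12a*, *Ltbr* and *Cd40* do not, so the name death receptors fits part of the list.

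Receptors of this family bind trimeric ligands, or neurotrophins in the case of *Ngfr*, and have no enzymatic activity of their own. Those with a death domain can assemble adaptors such as FADD and TRADD and activate caspase-8, and those without one recruit TRAF proteins and feed the NF-κB pathway. Hepatocytes are sensitive to FAS-driven apoptosis, and several receptors of the family, among them *Fas*, *Tnfrsf10b* and *Eda2r*, are known targets of p53, the transcription factor that responds to DNA damage of the kind BaP causes.

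Liver RNA came from 20 male Muta™Mouse animals (transgenic mouse strain 40.6, which carries a bacterial reporter gene for mutations in every group) aged 25 weeks. The control group received olive oil by daily gavage, and the other 3 groups received BaP at 25, 50 or 75 mg/kg/day in the same vehicle for 28 days, called here the low, middle and high dose, with 5 mice in each of the 4 groups. Livers were taken 3 days after the last dose, so the values describe the tissue after a recovery of that length. Each RNA was labeled with Cy5 and hybridized to 1 two-color array beside a Cy3-labeled universal mouse reference RNA from cell lines, and every value below is the log2 ratio of liver over reference unless stated otherwise.

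The labels name both lung and liver as the tissue. Of the hepatocyte markers, 7 of 8 were present, and *Alb*, the serum albumin gene, had a mean log2 ratio of 3.68 in the controls. Of 6 lung epithelium markers, 3 were present, namely the surfactant gene *Sftpa1*, *Scgb1a1* and *Ager*. Their control means were 0.44, 0.00 and -0.40, and they were well above background on 16, 5 and 1 of the 20 arrays. The surfactant genes *Sftpc* and *Sftpb*, and *Foxj1*, were not present. The samples were read as liver, the tissue the paper names. In the liver channel, the share of spots the scanner software marked as well above background was 51.9 to 67.5% per array, and control replicate 4 stood apart at 67.5% (51.9 to 54.3% for the remaining controls). The arrays lay on 6 slides. Every low dose array occupied position 2 of its slide and every high dose array position 4, with control replicate 2 also at position 2 and middle dose replicate 13 also at position 4, and every other control and middle dose array at positions 1 and 3, so dose and position can hardly be told apart. A gene was called changed at a Benjamini-Hochberg adjusted p under 0.05 over all 27345 present probes together with a fold change over 1.5, from 1 limma model of the 20 arrays.

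*Eda2r* encodes the receptor for ectodysplasin A2. In replicate order, its log2 ratios were -0.93, -0.99, -1.25, -1.27 and -0.88 in the controls and -0.90, -1.10, -0.79, -1.08 and -0.89 at the low dose. They were -0.20, -0.76, -0.73, -0.62 and -0.79 at the middle dose and -0.21, 0.17, 0.65, -0.39 and -0.36 at the high dose. The controls and the lowest dose overlapped, all 5 arrays at the middle and all 5 at the high dose lay above all 5 controls, and the SD grew from 0.19 in the controls to 0.44 at the highest dose (n = 5 each). The spot was not well above background on any of the 5 control arrays, but it was on 4, 5 and 5 of the 5 arrays at the low, middle and high dose. Folds over the control are therefore lower bounds with regard to background only, and make no allowance for the spread between mice. They were taken from the liver channel alone after normalization of both channels and are open to dye bias, since no dyes were swapped. The mean liver signal was 6.53 (log2) in the controls and 6.66, 6.99 and 7.54 in the dosed groups in order of dose. The folds between these means were 1.09, 1.37 and 2.01. No rise is read from the low dose fold, since the fold from the log2 ratios had a limma interval of 0.852 to 1.38 there. The fitted log2 ratio differed from the control by 0.12 (SE 0.17, adjusted p = 0.882 from limma) for the low dose, by 0.44 (SE 0.17, adjusted p = 0.686, unadjusted 0.0147) for the middle dose and by 1.04 (SE 0.17) for the high dose. The control arrays are those of the comparison that chose the family, so p-values and intervals against them are not independent of that choice. From the scanner's processed signals, which subtract the background of the spot, the low dose differed by 0.90, which limma did not call, the middle dose by 1.82 (adjusted p = 0.0377 from limma) and the high dose by 2.88. The name of this probe comes from the supplementary material of the study. The other *Eda2r* probe was not well above background on any of the 20 arrays and showed no such gradient, with mean log2 ratios of -0.18, -0.05, -0.08 and -0.05 from the control to the highest dose.

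*Ngfr* encodes the p75 neurotrophin receptor, which in liver is known from stellate cells. Its brighter probe had log2 ratios of 2.45, 2.06, 2.05, 2.76 and 2.37 in the controls and 2.69, 3.13, 3.00, 2.61 and 2.35 at the low dose. At the middle dose they were 2.77, 3.00, 2.74, 2.99 and 3.30, and at the high dose 2.68, 3.21, 3.42, 3.02 and 3.19. The group means were ordered by dose, and 2, 4 and 4 of the 5 arrays at the low, middle and high dose lay above all controls, with control replicate 4 as the highest control. The difference from the control was 0.42 (SE 0.17, adjusted p = 0.637 from limma) at the low dose and 0.62 (SE 0.17, adjusted p = 0.522) at the middle dose, where the unadjusted p was 0.00134 and the fold 1.54 with a 95% interval of 1.21 to 1.96. At the high dose the difference was 0.76 (SE 0.17), a fold of 1.70. As for *Eda2r*, the p-values and the interval use the controls behind the choice of the family and are not independent of it. The second *Ngfr* probe, well above background on 15 of 20 arrays and with a mean intensity of 6.45 against 8.02 (log2) for the first, had means not ordered by dose, and its differences from the control were 0.06, -0.11 and 0.00 at the 3 doses.

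*Tnfrsf1a* encodes TNF receptor 1, the main death domain receptor for TNF. Its log2 ratios were -0.35, 0.13, 0.14, -0.27 and -0.51 in the controls, -0.01, 0.57, 0.51, 0.41 and 0.23 at the low dose, 0.16, 0.32, 0.04, -0.03 and 0.12 at the middle dose, and 0.49, 0.25, 0.70, 0.32 and 0.65 at the high dose. The means were not ordered by dose, since the mean at the middle dose (0.12) lay between those of the controls (-0.17) and the low dose (0.34). At the lowest dose 4 of 5 arrays lay above all controls, at the middle dose 2 of 5, and at the highest dose all 5. The difference from the control was 0.51 (SE 0.14, adjusted p = 0.637 from limma, unadjusted 0.00136) at the low dose and 0.29 (SE 0.14, adjusted p = 0.734) at the middle dose. At the high dose it was 0.65 (SE 0.14), a fold of 1.57. These p-values too use the controls behind the choice of the family. This gene was read by 10 spots on each array, whose median SD within an array was 0.048, against an SD of 0.22 between mice of a group, so spots of an array differed less than mice of a group.

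**Figure D1:**
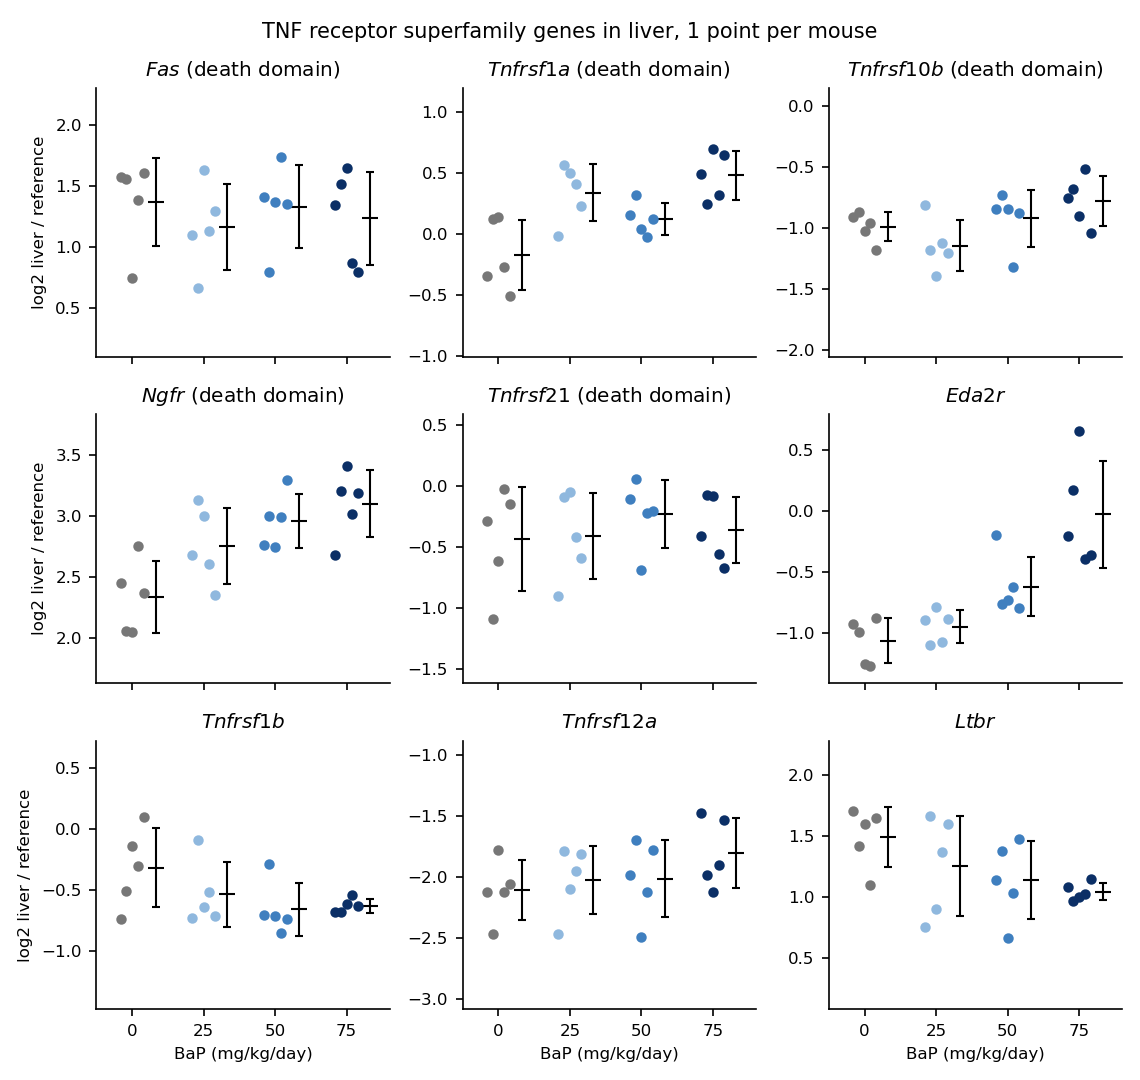
Log2 ratio of liver over reference (vertical axis, 2.2 log2 units in every panel) against dose (horizontal axis) for the main probe of each gene, with 1 point per mouse and, to the right of each group, its mean and SD (n = 5). All 5 *Eda2r* points at 50 and at 75 mg/kg/day lie above the 5 controls, the *Ngfr* means increase with each dose, and *Tnfrsf1a* is lower at 50 than at 25 mg/kg/day.

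Because these 3 genes are the ones that led to the choice of the family, the 250 bases upstream of their start sites are shown, from RefSeq on build GRCm38.p6, which is not the mm8 build named by the arrays. They lie at chrX:97377210-97377459 (minus strand) for *Eda2r*, chr6:125349473-125349722 (plus strand) for *Tnfrsf1a* and chr11:95587699-95587948 (minus strand) for *Ngfr*, and are written 5′ to 3′ along the gene. Capitals mark matches on either strand to the core of the dioxin response element, GCGTG, bound by the aryl hydrocarbon receptor that BaP activates, to the GC box, GGGCGG, to the TATA box, TATAAA, or to the p53 half-site.
*Eda2r*: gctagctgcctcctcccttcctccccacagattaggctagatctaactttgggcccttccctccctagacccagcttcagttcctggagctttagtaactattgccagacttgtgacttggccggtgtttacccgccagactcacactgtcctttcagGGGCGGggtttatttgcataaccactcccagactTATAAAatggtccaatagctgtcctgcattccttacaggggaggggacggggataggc
*Tnfrsf1a*: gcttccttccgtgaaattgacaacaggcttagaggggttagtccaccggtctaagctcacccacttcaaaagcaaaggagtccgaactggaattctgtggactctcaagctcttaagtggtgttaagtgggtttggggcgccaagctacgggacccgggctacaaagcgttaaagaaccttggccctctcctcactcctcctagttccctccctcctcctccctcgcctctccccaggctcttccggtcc
*Ngfr*: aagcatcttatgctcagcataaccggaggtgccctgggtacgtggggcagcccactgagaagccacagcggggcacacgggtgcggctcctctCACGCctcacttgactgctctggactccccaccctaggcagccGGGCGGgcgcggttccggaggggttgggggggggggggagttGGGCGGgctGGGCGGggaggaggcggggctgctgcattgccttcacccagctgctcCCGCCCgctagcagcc

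*Eda2r* had 1 GC box and 1 TATA box, with the nearest bases 87 and 53 bases upstream of its start site. *Ngfr* had 4 GC boxes and 1 dioxin response element core, and *Tnfrsf1a* had no match to any of the 4 motifs. No p53 half-site was matched in the windows of these 3 genes or of the 5 other members with an entry (*Fas*, *Tnfrsf1b*, *Tnfrsf21*, *Tnfrsf12a* and *Ltbr*). Among all 32851 promoters of the same length, 28.2% held the dioxin response element core, 32.7% the GC box, 12.4% the TATA box and 7.13% the p53 half-site. All 5 of those other members held a GC box, and *Fas* and *Tnfrsf1b* also held the dioxin response element core. A match describes the letters only, and no matches overlapped in the printed windows.

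Among the other receptors with a death domain, none was called on the arrays. *Fas* encodes the receptor for FAS ligand, and its mean log2 ratio was 1.37 ± 0.36 (SD, n = 5) in the controls and 1.16 ± 0.35, 1.33 ± 0.34 and 1.23 ± 0.38 at the low, middle and high dose. Its groups overlapped at every dose, and the 95% intervals of the fold over control ran from 0.639 to 1.17 at the low dose and from 0.717 to 1.32 at the middle dose. *Tnfrsf21*, which encodes death receptor 6, had means of -0.44 ± 0.43, -0.41 ± 0.36, -0.24 ± 0.28 and -0.36 ± 0.27 (SD, n = 5), and its second probe differed from the control by 0.01, 0.21 and 0.19 at the 3 doses.

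*Tnfrsf10b* encodes the mouse TRAIL receptor. By RT-PCR, the paper reports its RNA as significantly higher at the middle and high dose, but not at the low dose. The lack of a call on the arrays therefore does not show that the gene was unchanged. Its brightest probe was well above background on 1, 1, 1 and 4 of the 5 arrays in the control, low, middle and high dose groups, its second probe on 0, 1, 2 and 3, and the remaining probe on none of the 20 arrays. With the brightest probe the log2 ratios ran from -1.17 to -0.87 in the controls, -1.39 to -0.81 at the low, -1.32 to -0.73 at the middle and -1.04 to -0.51 at the high dose, and all groups overlapped. The difference from the control was -0.16 (SE 0.12, adjusted p = 0.766 from limma) at the low and 0.07 (SE 0.12, adjusted p = 0.946) at the middle dose, and 0.21 (SE 0.12) at the high dose. A signal this close to background limits how large a fold the array can show. Over the alternative ways of processing, the difference at the high dose ran from 0.08 to 1.12, with 1.12 from the scanner's own processed signals.

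Of the receptors without a death domain, 4 of 5 were measured. *Ltbr*, the lymphotoxin beta receptor, had log2 ratios of 1.70, 1.41, 1.59, 1.10 and 1.65 in the controls and 1.08, 0.96, 1.00, 1.02 and 1.14 at the high dose, so 4 of 5 arrays at the highest dose lay below all controls and the fifth overlapped with control replicate 4 alone. Its mean was lower at each dose step, by 0.24 (SE 0.17, adjusted p = 0.746 from limma) at the low and 0.35 (SE 0.17, adjusted p = 0.746) at the middle dose relative to the control. The difference at the high dose was -0.45 (SE 0.17), and the SD of that group was 0.07 against 0.24 in the controls. In the RefSeq annotation of GRCm38.p6, 1 protein-coding gene (*Scnn1a*) lies between *Ltbr* and *Tnfrsf1a*, and the means of these close neighbors lay on opposite sides of the control at all 3 doses.

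*Tnfrsf1b* encodes TNF receptor 2. Its mean was -0.32 ± 0.32 (SD, n = 5) in the controls and -0.54 ± 0.26, -0.66 ± 0.21 and -0.63 ± 0.06 at the 3 doses, and no array at the high dose lay below the lowest control. The difference at the middle dose was -0.34 (SE 0.15, adjusted p = 0.724 from limma, unadjusted 0.0293), and its second probe gave -0.14 (SE 0.10, adjusted p = 0.821). *Tnfrsf12a*, which encodes the TWEAK receptor FN14, had log2 ratios from -2.47 to -1.78 in the controls and from -2.13 to -1.48 at the high dose. Its differences from the control were 0.09 and 0.10 (SE 0.17 each) at the low and middle dose, with adjusted p of 0.919 and 0.941 from limma, and 0.31 at the high dose.

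**Figure D2:**
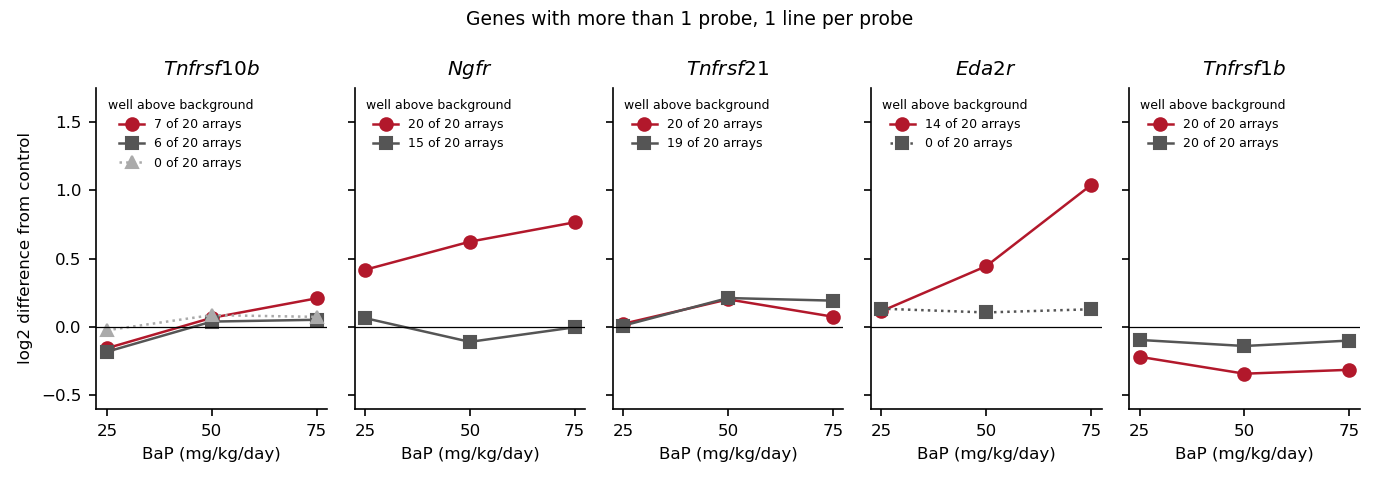
Difference of the group mean from the control mean (log2, vertical axis) against dose (horizontal axis) for the 5 genes with more than 1 probe, with 1 line per probe, dotted where the probe was not present, and the legend giving the arrays on which it was well above background. In *Eda2r* and *Ngfr* the brighter probe increases with dose and the dimmer probe stays within 0.13 of the control, while the probes of *Tnfrsf21* stay within 0.21 of it.

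At the low dose limma called 0 of the 9 members, as it called 0% of all probes in either direction (percent called higher 0, lower 0). The differences ran from -0.24 (*Ltbr*) to 0.51 (*Tnfrsf1a*), with a median of 0.02 against 0.00 over all probes, and 2 of 9 members (*Tnfrsf1a* and *Ngfr*) had an unadjusted p under 0.05, where 7.80% of all probes did. No member had all its arrays above or below all controls, against 0.56% and 0.655% of all probes. This comparison and the next share their 5 control arrays with the comparison by which the family was chosen.

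At the middle dose limma again called 0 of 9 members (0% of all probes higher and 0% lower), with differences from -0.35 (*Ltbr*) to 0.62 (*Ngfr*) and a median of 0.10. An unadjusted p under 0.05 was found for 4 members (*Ngfr*, *Eda2r*, *Tnfrsf1a* and *Tnfrsf1b*), against 6.70% of all probes. *Eda2r* was the 1 member with all 5 arrays above all controls, which held for 0.516% of all probes, and no member had all 5 below, which held for 0.3%.

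At the high dose 3 of the 9 members exceeded a fold of 1.5 (*Eda2r*, *Ngfr* and *Tnfrsf1a*), 0 fell below the inverse of it, and 6 of 9 means were above the control. *Eda2r* was the 1 member called, beside 0.132% of all probes called higher and 0.00366% called lower. *Eda2r* and *Tnfrsf1a* were the 2 members with all 5 arrays above all controls, beside 0.936% of all probes, and no member had all 5 below, beside 0.581%. These counts follow from the values that chose the family, and nothing is read from them.

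**Figure D3:**
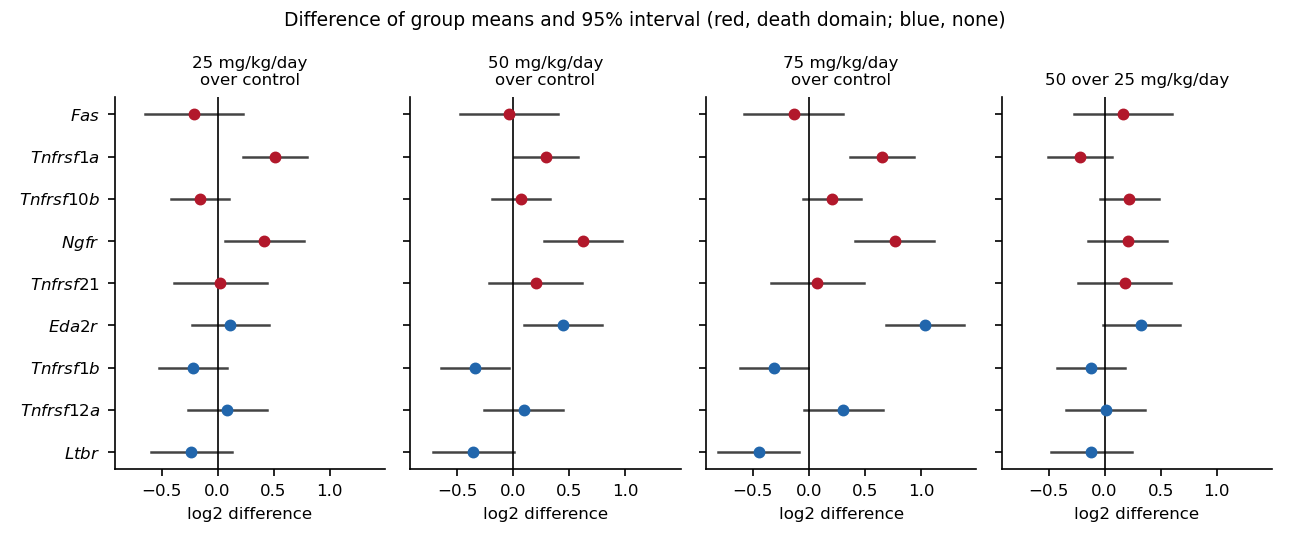
Difference between group means (log2, horizontal axis) with its 95% interval from limma for the main probe of each gene, in 4 comparisons (red, death domain; blue, none). The panel for 75 mg/kg/day is the comparison by which the genes were chosen, and in the panel for 50 over 25 mg/kg/day all 9 intervals include 0.

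The comparison of the middle with the low dose compares none of the arrays behind the choice, although the spread in the model comes from all 20. Here limma called 0 of 9 members (0% of all probes higher, 0% lower), and 0 of 9 reached an unadjusted p under 0.05, where 8.29% of all probes did. No member had all arrays of one dose above or below all of the other, against 1.03% and 0.633% of all probes. The second *Tnfrsf10b* probe, outside that count, had an unadjusted p of 0.0470 from limma. *Eda2r* had the largest difference of the 9, 0.33 (SE 0.17, adjusted p = 0.621 from limma), a fold of 1.26 with a 95% interval of 0.988 to 1.60, and 4 of 5 arrays at the middle dose lay above all 5 at the low dose. An exact permutation test of that difference alone gave p = 0.0159 (two-sided, not adjusted), where 252 relabellings allow no p below 0.00794. For *Ngfr* the difference was 0.21 (SE 0.17, adjusted p = 0.799 from limma, exact permutation p = 0.254). For *Tnfrsf1a* it was -0.22 (SE 0.14, adjusted p = 0.722 from limma, exact permutation p = 0.103), with all 5 arrays at the middle dose at or below 0.32. The exact permutation p of the other 6 members lay between 0.159 and 0.968.

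Slides 1 to 3 each held 1 array of every group, and slide 6 held 2 controls and 2 arrays at the middle dose. Slides 4 and 5 each held 1 array at the low and 1 at the high dose, with no control or middle dose array. The main model has no term for slide. When the low or high dose is compared with the control or middle dose, dose and slide therefore cannot be fully told apart. Within slides 1 to 3, *Eda2r* at the high dose exceeded the control of the same slide by 1.44, 1.53 and 0.72, *Tnfrsf1a* by 0.51, 1.21 and 0.84 and *Ngfr* by 0.45, 1.05 and 0.23. These are the arrays whose values chose the family, so the differences are a description. *Tnfrsf10b* was higher as well, with differences of 0.28, 0.27 and 0.15, and *Ltbr* was lower, with differences of -0.13, -0.65 and -0.62. From the low to the middle dose within the same slides, *Eda2r* differed by 0.29, 0.17 and 0.69 and *Tnfrsf1a* by -0.29, -0.53 and -0.08. Each kept 1 direction, as did *Tnfrsf10b* (0.25, 0.07 and 0.37) and *Fas* (0.22, 0.10 and 0.11), and the remaining members did not. With slide as a block in the limma model, the differences at the high dose were 1.11, 0.79 and 0.59 for *Eda2r*, *Tnfrsf1a* and *Ngfr*. At the middle dose over the control the block left 0.62 for *Ngfr* (adjusted p = 0.197 from limma), and at the low dose it gave 0.65 for *Tnfrsf1a* (adjusted p = 0.217). At the low dose *Ngfr* differed from the control of the same slide by -0.15, 0.63 and -0.10 on slides 1 to 3, lower on 2 of 3, and by 0.24 (adjusted p = 0.619 from limma) with the block, against 0.42 without it. Without control replicate 4, the array that stood apart, the differences at the high dose were 0.99 for *Eda2r*, 0.63 for *Tnfrsf1a*, 0.87 for *Ngfr* and -0.55 for *Ltbr*.

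**Figure D4:**
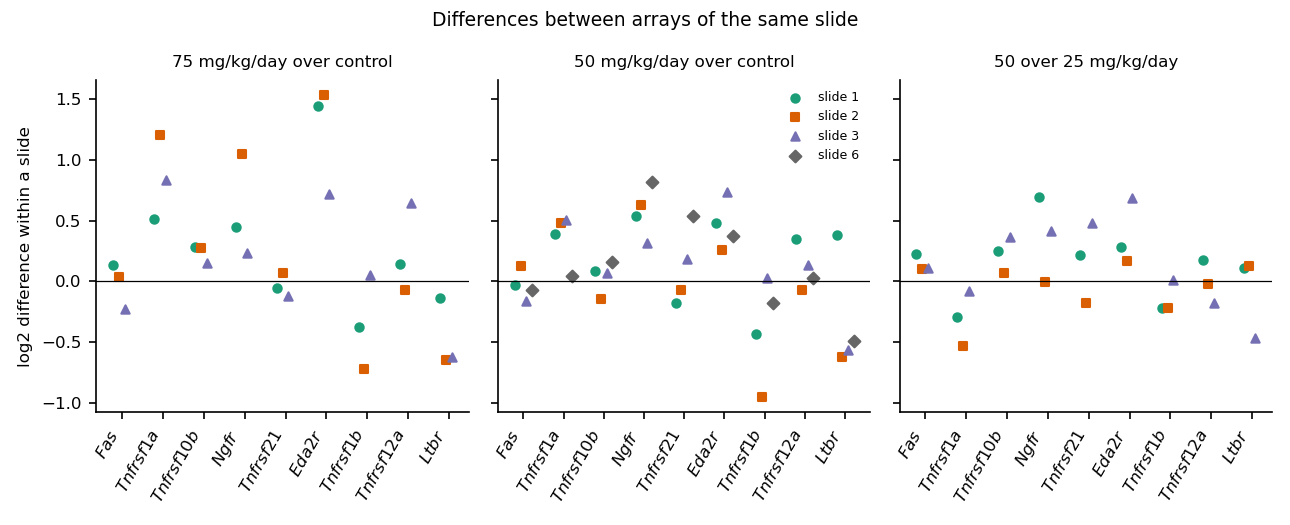
Differences between arrays of the same slide (log2, vertical axis) for each gene (horizontal axis), with 1 point per slide and the 2 arrays of a group averaged on slide 6. At 75 mg/kg/day over control the 3 points of *Tnfrsf1a*, *Tnfrsf10b*, *Ngfr* and *Eda2r* lie above 0 and those of *Ltbr* below. *Fas*, *Tnfrsf21*, *Tnfrsf1b* and *Tnfrsf12a* lie on both sides.

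In whole liver RNA, a change in the number of cells of a type and a change in RNA per cell cannot be told apart. Beside the difference of *Ngfr*, 7 of 8 endothelial cell markers were higher at the high dose than in the controls, with a median difference of 0.55, and 1 (*Lyve1*) was called. The mean log2 ratio of that list ran from 1.65 to 2.31 over the control arrays and from 2.37 to 2.99 over the arrays at the highest dose, so the groups did not overlap. Within the list *Lyve1* differed by 2.23 and the other markers by -0.11 (*Tek*) to 0.78 (*Cdh5*). Of all single probes, 0.936% had every array at that dose above all controls, and 0.132% were called higher. Of the stellate cell and fibroblast markers, 5 of 8 were higher, with a median of 0.24 and 0 called, and the mean over the 7 measured on all arrays ran from -1.64 to -0.85 in the controls and from -1.17 to -0.72 at the high dose. All 7 hepatocyte markers present were higher, with a median of 0.44 and 0 called, and of the Kupffer cell markers 6 of 7 were higher, with a median of 0.08 and 1 called (*Marco*). The bile duct, B cell, T cell and neutrophil lists had 2 of 5, 2 of 3, 1 of 6 and 2 of 2 present markers higher, with 0 called, and the neutrophil mean ran from 0.81 to 1.92 in the controls and from 1.22 to 2.85 at the high dose. The part of these cell types in the receptor values was not tested.

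The ligands, adaptors and downstream genes showed no call in any comparison. Of 61 genes listed (11 ligands, 18 other receptors of the family, 9 adaptors, 5 genes of caspases and *Bid*, 6 inhibitors and 12 NF-κB genes), 53 were tested. In each of the 4 comparisons limma called 0 higher and 0 lower. Of all probes, 0.132% were called higher and 0.00366% lower at the high dose, and 0% in the other comparisons. With shares this small, the absence of calls says nothing particular about these lists. The lowest adjusted p from limma was 0.650, 0.676 and 0.281 for the low, middle and high dose over the control and 0.467 for the middle over the low dose. At an unadjusted p under 0.05 the counts were 0, 3, 4 and 2 of 53, beside 7.80, 6.70, 11.2 and 8.29% of all probes. The median difference of the 53 genes at the high dose was -0.03, against 0.00 over all probes and 0.21 over the 9 members.

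Among the ligands, the gene with the largest difference at the high dose was *Tnf*, the ligand of the receptors encoded by *Tnfrsf1a* and *Tnfrsf1b*, at -0.16 (SE 0.07, adjusted p = 0.442 from limma). Among the other receptors it was *Tnfrsf11b*, which encodes the decoy receptor osteoprotegerin, at 0.68 (SE 0.23, adjusted p = 0.281), with 2 of 5 arrays above all controls. Of the adaptors, *Ripk1*, the kinase that TNF receptor 1 recruits, differed by 0.11 (SE 0.10, adjusted p = 0.715 from limma). In the list of caspases and *Bid*, 1 of 5 genes had a mean above the control, with a median difference of -0.22 and 0 called. *Cflar*, which encodes the caspase-8 inhibitor c-FLIP, differed by 0.25 (SE 0.31, adjusted p = 0.807), and *Ikbkb*, a kinase that releases NF-κB, by -0.20 (SE 0.12, adjusted p = 0.556).

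**Figure D5:**
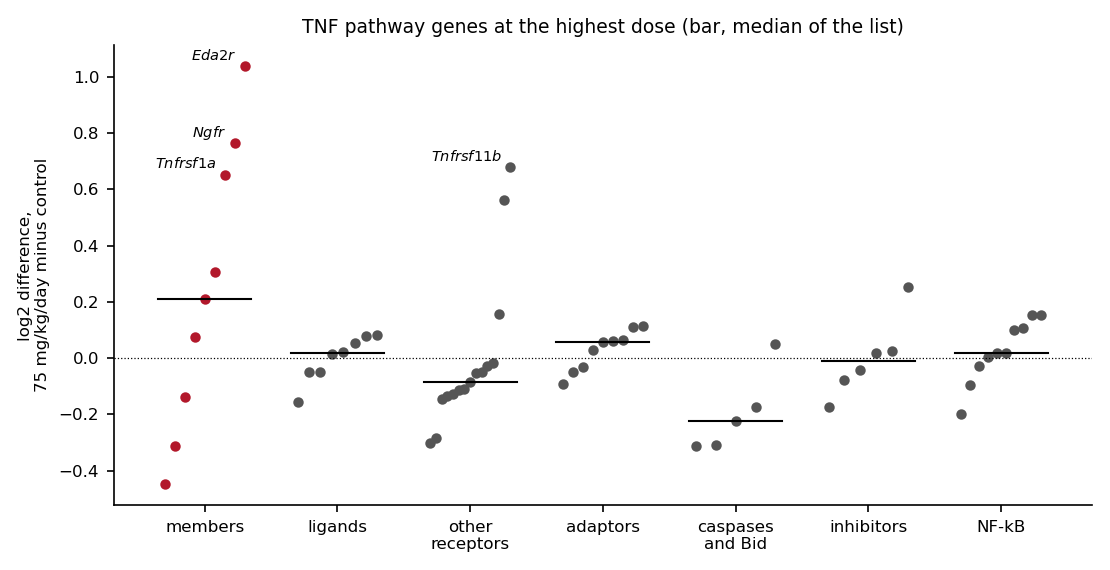
Difference between the 75 mg/kg/day and control means (log2, vertical axis) for each gene of 7 lists (horizontal axis), with 1 point per gene and a bar at the median of the list. *Eda2r*, *Ngfr*, *Tnfrsf1a* and *Tnfrsf11b* are named, with differences of 1.04, 0.76, 0.65 and 0.68, and the bars of the 6 pathway lists lie between -0.22 and 0.06.

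After the dose group mean was removed from each array, the 9 members formed 36 pairs over 20 arrays, and the permutation tests were within dose groups, two-sided and adjusted over the 36 pairs. *Tnfrsf12a* and *Ltbr* deviated together, with Pearson's r of 0.74 (permutation p = 0.00043, adjusted 0.0155), Spearman's rho of 0.75 (permutation p = 7e-05, adjusted 0.00252) and an r of 0.57 without the 2 arrays farthest from the median of *Tnfrsf12a*. With the slide mean removed as well, r was 0.71 (permutation p = 0.00622, adjusted 0.112). *Eda2r* and *Fas* passed by rank alone, with r of 0.67 (permutation p = 0.00344, adjusted 0.0619) and rho of 0.75 (permutation p = 0.00063, adjusted 0.0113), and r was 0.73 without the 2 farthest arrays but 0.36 (permutation p = 0.266) once the slide mean was removed. *Ngfr* and *Tnfrsf21* had r of 0.64 (permutation p = 0.00767, adjusted 0.0920) and rho of 0.69 (permutation p = 0.00357, adjusted 0.0428), with r of 0.69 without the 2 farthest arrays. With the slide mean removed r was again 0.69 (permutation p = 0.0147, adjusted 0.161) and rho 0.69 (permutation p = 0.0153, adjusted 0.136), so the call by rank was lost. *Fas* and *Tnfrsf12a* had r of -0.50 (permutation p = 0.0414, adjusted 0.298) and rho of -0.50 (permutation p = 0.0411, adjusted 0.296), and with the slide mean removed r was -0.88 (permutation p = 0.00014, adjusted 0.00504) and rho -0.89 (adjusted permutation p = 0.00792). *Fas* and *Tnfrsf1b* passed by rank in that setting alone, with rho of -0.83 (permutation p = 0.00248, adjusted 0.0446) and r of -0.72 (permutation p = 0.0184, adjusted 0.161), against rho of -0.51 (adjusted permutation p = 0.270) and r of -0.55 (adjusted permutation p = 0.175) with the dose group mean removed. *Eda2r*, *Tnfrsf1a* and *Ngfr*, the 3 genes with the largest differences at the highest dose, had r between -0.05 and 0.10 within groups for their 3 pairs, with an adjusted permutation p of 0.852 or more, and r between 0.02 and 0.43 with the slide mean removed, with an adjusted permutation p of 0.382 or more.

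Over all 20 arrays, dose differences included, the genes whose log2 ratios were most like that of *Eda2r* among 12986 other genes were *Ltc4s* (r = 0.89), *Ddit4l* (r = 0.89) and *Zmat3* (r = 0.89), as a description. Their differences from the control at the low, middle and high dose were 0.35, 1.15 and 2.27 for *Ltc4s*, 0.06, 0.29 and 1.65 for *Ddit4l* and 0.14, 0.37 and 0.76 for *Zmat3*. Each of these was ordered by dose, as *Eda2r* was. Since the dose differences enter r, a shared order follows in part from how these genes were picked. For *Ngfr* the most like genes were *Treml4* (r = 0.90), *Afap1l1* (r = 0.89) and *Heyl* (r = 0.86). Of these, *Afap1l1* was ordered by dose as *Ngfr* was, with differences from the control of 0.291, 0.380 and 0.572. *Treml4* (0.513, 0.581 and 0.579) and *Heyl* (0.446, 0.420 and 0.655) were not. For *Tnfrsf1a* they were *Seh1l* (r = 0.81), *Ralgps2* (r = 0.80) and *Tigar* (r = 0.80), and all 3 had a lower mean at the middle than at the low dose, as *Tnfrsf1a* had, with differences from the control of 0.68, 0.14 and 0.73 for *Tigar*. With the slide mean removed, r stayed between 0.82 and 0.94 for these 9 genes. The arrays share slides, doses and the reference, and genes are not independent of each other.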

How the data were processed

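RNA was read on two-color arrays of 45018 features. The authors extracted median spot and local background intensities with Feature Extraction (10.1.1.1 per the file headers), not normalized, and deposited beside them processed intensities that the software had background subtracted and dye normalized, and log2 ratios of liver over reference that they had normalized by LOWESS. The marks for spots well above background or outlying came from the same software. From the deposited median intensities, log2 ratios were computed by normexp (offset 50) and loess within each array, outlier spots were left out, and spots of a probe were averaged (41174 probes). Across probes, which are not independent, they correlated with the deposited ratios at r of 0.994 to 0.996. Direction follows the labels (Cy5 liver, Cy3 reference).

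A probe was present when its liver signal exceeded the mean plus 3 SDs of the 153 negative control spots (5% trimmed) in at least 4 of 5 arrays of a group (27345 probes). Of 41174 probes, 23375 were named through accessions in RefSeq (GRCm38.p6), and the main *Eda2r* probe through the study's supplementary material. The present probe of highest mean intensity stands for a gene. limma 3.58.1 in R 4.3.3 (statmod 1.5.0) fitted 1 model over 20 arrays and was tested on simulated data. Python 3.11.15 and matplotlib 3.10.9 drew the figures. The number of arrays limits the precision. MAANOVA was not used, and all 20 arrays were kept, although the paper removed 1 that it does not name. The series description and the labels differ on the lowest dose, and 25 mg/kg/day of the labels was used.

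The members, gene lists and tests were chosen with earlier results of these data known. Named genes are all members, in each pathway list any gene called and the one with the largest difference at 75 mg/kg/day (1 of these genes is not reported here), and the 3 genes most like *Eda2r*, *Tnfrsf1a* and *Ngfr*. Alternatives were other background corrections and normalizations, the scanner's processed signals, the deposited ratios, the liver channel alone, other filters on dim probes, slide as a fixed or random block, only the arrays compared, leaving out each array, the mean of a gene's probes and an exact permutation test. Marker lists of hepatocytes and other cell types of liver and lung were read beside the members.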

Additional observations from a re-analysis of the deposited data

Results flagged for a closer look

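In 52 groups of 5 arrays (13 present probes, 4 groups each), 3 values lay far from the other 4 of their group, where chance gives about 1 in 20 groups. *Fas* in control replicate 3 was at a log2 ratio of 0.74, against 1.38 to 1.61 in the other controls. *Tnfrsf10b* at 50 mg/kg/day was at -1.32 in replicate 14, against -0.87 to -0.73 in the others, near background. *Tnfrsf1b* at 50 mg/kg/day was at -0.29 in replicate 12, against -0.85 to -0.71 in the others.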

How the results depend on the processing

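The calls at 75 mg/kg/day, a description here, depended on the model. The count of called members was 1 (*Eda2r*) as reported, 2 without background subtraction or with slide as a fixed block (*Tnfrsf1a* added), 3 with slide as a random block (consensus correlation 0.24, *Ngfr* added), 0 with only the arrays of the groups compared, and 0 of 7 with only probes well above background on all arrays, where *Eda2r* and *Tnfrsf10b* dropped out by construction. Leaving out each array in turn gave 1 to 2, with *Tnfrsf1a* joining without replicate 2, 3, 6 or 19 and *Ngfr* without replicate 4 or 16. At 50 mg/kg/day 1 member (*Eda2r*, difference 1.82, adjusted p = 0.0377 from limma) was called with the processed signals of the scanner software, which put it at 2.88 at 75 mg/kg/day; the cause was not tested. Its adjusted p from limma at 50 mg/kg/day ran from 0.0377 to 0.899 over the alternatives that kept it, apart from leaving out an array. For 50 over 25 mg/kg/day, 1 member (*Eda2r*) had an unadjusted exact permutation p under 0.05, and no alternative of the limma fit called a member there or at 25 mg/kg/day, or a pathway gene in any comparison.

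Signs turned only for small, uncalled differences. With the liver channel alone, *Tnfrsf12a* was at -0.095 and -0.21 at 25 and 50 mg/kg/day over the control, and at -0.12 for 50 over 25, where *Ltbr* was at 0.0021. For Tnfrsf12a, 50 over 25 mg/kg/day gave -0.00484 without background subtraction and -0.049 with processed signals. *Tnfrsf21* at 25 mg/kg/day was at -0.029 and -0.012 with slide as a fixed and random block, and *Tnfrsf10b* at 50 mg/kg/day at -0.077 without background subtraction and -0.081 in the deposited ratios. Leaving out an array moved *Tnfrsf21* between -0.14 and 0.15 and *Tnfrsf12a* between -0.0032 and 0.20 at 25 mg/kg/day, *Fas* between -0.20 and 0.093 at 50 mg/kg/day, and *Tnfrsf12a* between -0.10 and 0.13 for 50 over 25. The mean of all probes gave 0.38 for *Ngfr* at 75 mg/kg/day. The replicate numbers differ between groups, so arrays were paired by slide and not by number. *Eda2r* and *Tnfrsf10b* are limited by signal near background.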
